A study of Mus musculus with 14 samples.

Results

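The miR-17-92 and miR-106b-25 clusters are related groups of microRNA (miRNA) genes, and their hairpins were followed in exosomes released by adipose tissue macrophages (ATMs). Members were taken by name from the authors' deposited table. They are mmu-mir-17, mmu-mir-18a, mmu-mir-19a, mmu-mir-20a, mmu-mir-19b-1 and mmu-mir-92a-1 of the miR-17-92 cluster, mmu-mir-92a-2, a copy on the X chromosome, and mmu-mir-106b, mmu-mir-93 and mmu-mir-25 of the miR-106b-25 cluster, written below without the species prefix. All 10 names have a row, out of 539 hairpins in that table. By the labels, 7 libraries are from obese and 7 from lean mice, each made from exosomes of CD11b+F4/80+ macrophages of C57BL/6 adipose tissue. Cells of both groups spent 72 h in culture with 10% exosome-free serum before vesicles were pelleted by ultracentrifugation. The diet or other cause of obesity is not given in the labels, and neither is whether a library stands for 1 animal, so p-values measure the spread between these libraries. The age labels all start at 24 weeks, and their upper end grows by 1 week from each listed library to the next, over 26 to 32 weeks for obese libraries and 33 to 39 weeks for lean ones. The ranges overlap, and whether ages differed between the groups is not known.

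Per the submitters' processing notes, reads were handled with Trimmomatic 0.30, Novoalign, edgeR and limma. The deposited table holds limma's summary for each hairpin and no value of a single library. The level of a member in each library, its mean in obese and in lean exosomes, and the depth of the libraries were therefore not analysed here. The table does not name the numerator of its fold changes. Its sign was read from mir-155, which published work on this material reports as higher in obese ATM exosomes and which is positive here. Under that reading a positive log2 fold change is a higher level in obese exosomes, and the directions given for the cluster members hold relative to mir-155. Each row is a hairpin, and its arms cannot be separated. In such bulk vesicle RNA, a change in which vesicles are present and a change in the miRNA per vesicle cannot be told apart. Of 7 macrophage and leukocyte marker hairpins all have a row, and the authors' deposited table puts their mean log2 expression between 4.17 for mir-511 and 15.02 for mir-22. Among them mir-155 (4.41, adjusted p = 0.00205) and mir-511 (−4.70, adjusted p = 0.0148) passed limma's test in the authors' deposited table, on opposite sides. Of 3 lymphocyte markers, mir-181a-1 and mir-181b-1, which macrophages also express, passed on the positive side in the authors' deposited table, with log2 fold changes of 2.57 (adjusted p = 0.00174) and 2.74 (adjusted p = 0.00142), while mir-150 was at 0.59 (adjusted p = 0.910, limma). By the authors' deposited table, mean log2 expression spanned 4.15 to 11.81 over 3 erythrocyte markers, 0.97 to 14.04 over 4 adipocyte markers (median 3.02), 0.22 to 6.59 over 4 mesenchymal and 0.11 to 3.62 over 6 epithelial markers, with the endothelial mir-126a at 6.46 and the liver marker mir-122 at 2.15. None of the markers in these last lists passed. Among adipocyte markers, the listed mir-365-1 was at 0.98 (adjusted p = 0.591, limma). Its copy mir-365-2, which was not listed, passed at −3.75 (adjusted p = 0.0266, limma), at a mean log2 expression of 8.78. The part of RNA from other cells in the values below was not tested.

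A miRNA is cut from a hairpin and guides a silencing complex to messenger RNAs that pair with its seed, bases 2 to 8. The miR-17-92 cluster is transcribed as 1 precursor under the control of factors such as MYC and E2F, and its miRNAs favour cell proliferation and survival. The miR-106b-25 cluster is carried by Mcm7, the gene of a subunit of the helicase that unwinds DNA for replication. In human monocyte development, miR-17-5p and miR-20a are known to decline as cells mature and to target the transcription factor RUNX1. Both clusters hold miRNAs of the miR-17 seed and of the miR-92 seed, so they can share targets while they are transcribed separately.

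The mature miRNAs that carry these seeds are shown because the members are compared below by seed and by cluster. They are the RefSeq sequences (GRCm38.p6) of the arm usually taken as functional, with the seed in capitals, first for the miR-17-92 cluster in the order of its transcript, where the sequence of miR-92a-3p serves both mir-92a-1 and mir-92a-2, then for the miR-106b-25 cluster.
miR-17-5p: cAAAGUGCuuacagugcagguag
miR-18a-5p: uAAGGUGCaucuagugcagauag
miR-19a-3p: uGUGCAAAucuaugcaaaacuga
miR-20a-5p: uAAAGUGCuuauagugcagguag
miR-19b-3p: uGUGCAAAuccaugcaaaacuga
miR-92a-3p: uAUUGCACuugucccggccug
miR-106b-5p: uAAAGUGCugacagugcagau
miR-93-5p: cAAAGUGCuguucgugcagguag
miR-25-3p: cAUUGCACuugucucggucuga

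The mature forms fall into groups by seed. The seed AAAGUGC belongs to miR-17-5p, miR-20a-5p, miR-106b-5p and miR-93-5p, and AUUGCAC to miR-92a-3p and miR-25-3p. The seed GUGCAAA belongs to miR-19a-3p and miR-19b-3p, and AAGGUGC to miR-18a-5p, which differs from the miR-17 seed at 1 base. Within the miR-17 seed, counted from the 5′ end, miR-20a-5p differs from miR-17-5p by C1U and C12U, and miR-93-5p differs from it by U10G, A11U, C12U and A13C. The mature miR-106a-5p of the X chromosome differs from miR-17-5p by U10A alone, and its hairpin has no row in the authors' deposited table. How reads that match more than 1 hairpin were assigned was not stated in any source used here.

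On GRCm38, RefSeq and GENCODE M21 give the same ends for all 10 hairpins, while no source used here names the authors' build. The 6 hairpins of miR-17-92 lie within 836 bases of the plus strand of chromosome 14 (bases 115043671 to 115044506), inside an exon of the noncoding host gene Mir17hg. The 3 hairpins of miR-106b-25 lie within 498 bases of the minus strand of chromosome 5 (bases 138165321 to 138165818), in introns of Mcm7. For mir-93 and mir-25, 1 further Mcm7 transcript holds the hairpin in an exon. The hairpin mir-92a-2 lies on the minus strand of the X chromosome (bases 52741838 to 52741928) beside mir-19b-2 and mir-363, with no annotated host.

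The estimates of miR-106b-25 lay together on the positive side. Those of miR-17-92 other than mir-92a-1 were lower, but most were too imprecise to set the clusters apart. The 95% intervals of mir-18a, mir-19a, mir-20a and mir-19b-1, with upper ends from 1.99 to 3.89, held all 3 estimates of miR-106b-25. The interval of mir-17 (−1.14 to 1.23) held the 1.11 of mir-25 but not the 1.62 of mir-93 or the 1.81 of mir-106b. All 3 hairpins of miR-106b-25 had positive fold changes of similar size, with a median log2 fold change of 1.62 in the authors' deposited table. Of the 6 hairpins of miR-17-92, mir-92a-1 had the largest positive value of all members, while the other 5 lay between −0.40 and 0.77 in the authors' deposited table. The median of the 6 was 0.04 in the authors' deposited table, against 0.09 over all 539 hairpins and 0.34 over the 180 most abundant ones, which include all 10 members. Positive values made up 52.7% of all hairpins and 67.8% of those 180. None of the 10 members had an adjusted p under 0.05 in the authors' deposited table (limma, Benjamini-Hochberg adjustment), where 30 of 539 hairpins (5.57%) did. Of the 180 most abundant hairpins, 16 did. At an adjusted p under 0.1 the authors' deposited table has 3 members, mir-106b, mir-92a-1 and mir-93, beside 45 hairpins in all (8.35%). Of the 180 most abundant hairpins, 25 reached that threshold. Fold changes were also recentred, with t recomputed and the Benjamini-Hochberg adjustment repeated. On the median of all hairpins, the adjusted p was 0.0811 for mir-106b, 0.0889 for mir-92a-1 and 0.118 for mir-93. On the median of the 180 most abundant, it was 0.140, 0.130 and 0.218. The share of all hairpins under 0.1 after recentring was not computed. At an unadjusted p under 0.05 the authors' deposited table has 5 members, namely mir-106b, mir-92a-1, mir-93, mir-25 and mir-92a-2. All 5 are positive. That threshold was reached by 17.6% of all hairpins and by 44 of the 180 most abundant. When p was adjusted over the 231 hairpins that reach 3.32 in mean log2 expression, mir-106b (adjusted p = 0.0348) and mir-92a-1 (adjusted p = 0.0396) passed 0.05 by limma's p-values, among 32 hairpins (13.9%) that did. The median log2 fold change of those 231 hairpins was 0.30, and they were not recentred. At an unadjusted p under 0.05, the share of all hairpins that were positive in the authors' deposited table was 8.53%, and 17.8% among the 180 most abundant.

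**Figure D1:**
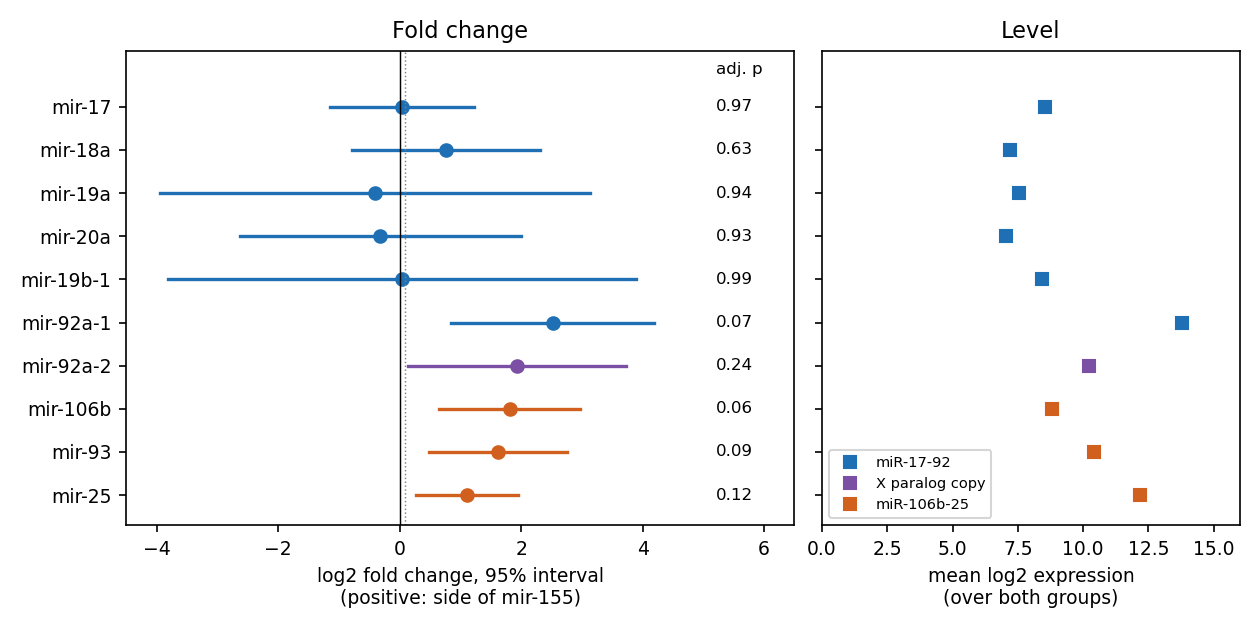
Fold change (left) and level (right) of the 10 members. Left: points are log2 fold changes of the authors' deposited table and bars 95% intervals from its t and p, with the adjusted p at the right, the solid line at 0 and the dotted line at the median of all 539 hairpins (0.09). Right: squares are mean log2 expression over both groups. The intervals of mir-92a-1, mir-92a-2 and the 3 miR-106b-25 hairpins lie above 0 and those of the other 5 members cross it. Recentred by 0.34, the intervals of mir-25 and mir-92a-2 reach −0.075 and −0.20.

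In the miR-106b-25 cluster, mir-106b gives rise to a miRNA of the miR-17 seed that targets the cell-cycle inhibitor Cdkn1a. Its log2 fold change in the authors' deposited table was 1.81 (3.51-fold), with p = 0.00400 and an adjusted p of 0.0614 from limma, rank 35 of 539 by p. Dividing that fold change by its t in the authors' deposited table gave a standard error of 0.55, and the 95% interval ran from 0.66 to 2.96. At that error a log2 fold change of 1.94 was needed for a call, since the smallest absolute t called was 3.53, a little more than the value of mir-106b.

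The next hairpin, mir-93, has the same seed as mir-106b. Its log2 fold change in the authors' deposited table was 1.62 (adjusted p = 0.0942, limma), with a standard error of 0.54 and a 95% interval from 0.49 to 2.75. The last hairpin, mir-25, carries the miR-92 seed and targets the pro-apoptotic gene Bcl2l11. Its log2 fold change in the authors' deposited table was 1.11 (2.16-fold, adjusted p = 0.123, limma), and the 95% interval ran from 0.27 to 1.96, or from −0.075 when recentred on the 180 most abundant. Among the 3 it was both the most abundant and the least changed, at 12.18 in mean log2 expression by the authors' deposited table, against 10.43 for mir-93 and 8.79 for mir-106b. Its standard error of 0.40 was the smallest of all 539 hairpins. The largest difference within this cluster, mir-106b minus mir-25, was 0.70, with a 95% interval no wider than −1.30 to 2.70, which leaves 0 only if their estimates correlate above 0.80.

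In the miR-17-92 cluster, mir-17 is the first hairpin of the transcript and gives its name to the AAAGUGC seed. Its log2 fold change in the authors' deposited table was 0.05 (adjusted p = 0.973, limma), and the sign turned to −0.045 when fold changes were recentred on the median of all hairpins and to −0.29 when recentred on that of the 180 most abundant. The standard error of mir-17, from the authors' deposited table, was 0.56, close to those of mir-106b and mir-93, and its 95% interval ran from −1.14 to 1.23. A difference above 2.35-fold therefore lay outside the interval of mir-17. The hairpin mir-20a, of the same seed, was at −0.32 (adjusted p = 0.929, limma) in the authors' deposited table, with a wider interval from −2.63 to 1.99. The hairpin mir-18a, whose miRNA targets the matrix protein gene Ctgf, was at 0.77 (adjusted p = 0.629, limma) in the authors' deposited table, with an interval from −0.78 to 2.32.

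The miR-19 hairpins were measured least precisely. In the authors' deposited table mir-19a was at −0.40 (adjusted p = 0.937) and mir-19b-1 at 0.04 (adjusted p = 0.991), both from limma, and mir-19b-1 turned to −0.051 and −0.30 under the recentring on all hairpins and on the 180 most abundant. Their standard errors from the authors' deposited table were 1.68 and 1.83. Of the 50 hairpins closest to each in mean expression, 3 had a larger standard error than mir-19a and none a larger one than mir-19b-1, where the median error of the neighbours was 0.83 and 0.72. The interval of mir-19b-1 ran from −3.81 to 3.89, so differences of several-fold in either direction lay inside it. For the miR-19 seed, the table does not show whether obese and lean exosomes differ.

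**Figure D2:**
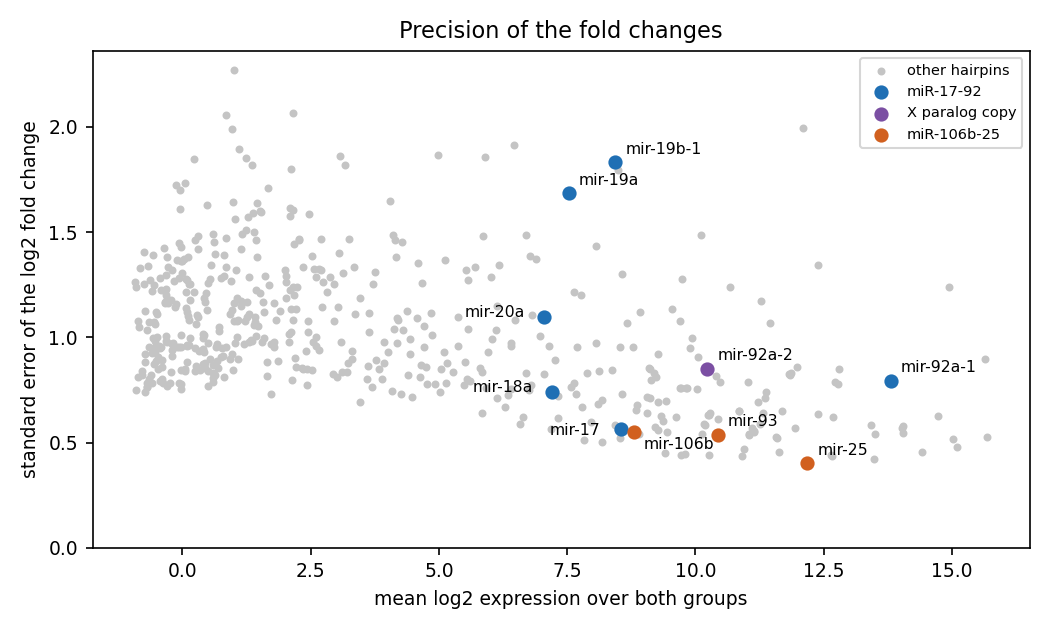
Standard error of the log2 fold change against mean log2 expression, both from the authors' deposited table, for 539 hairpins (grey) and the members (coloured by cluster). The 3 miR-106b-25 hairpins and mir-17 lie between 0.40 and 0.56, while mir-19a and mir-19b-1 stand at 1.68 and 1.83, above most hairpins of like abundance.

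The last hairpin of the transcript, mir-92a-1, yields a miRNA known to restrain the growth of new blood vessels. Its log2 fold change in the authors' deposited table was 2.52 (5.74-fold), with p = 0.00525 and an adjusted p of 0.0717 from limma. The 95% interval of mir-92a-1 from the authors' deposited table ran from 0.85 to 4.19, with a standard error of 0.79, above the median of 0.61 in its 50 neighbours in mean expression. Thus the member with the largest fold change was not the one with the smallest p, which was mir-106b. It ranked 11 of 539 by abundance, at a mean log2 expression of 13.81 by the authors' deposited table.

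Measured levels of the miR-17-92 rows were far apart although these hairpins share a transcript. Reads of miR-92a-3p can also come from mir-92a-2, and those of miR-19b-3p from mir-19b-2. How such reads were assigned is not known, so these rows may not reflect the chromosome 14 transcript alone. Per base of the mature form, the level computed from the authors' deposited table (mean log2 expression less the log2 of the length) was 9.41 for mir-92a-1, against 4.02 for mir-17, 3.91 for mir-19b-1, 3.0 for mir-19a, 2.67 for mir-18a and 2.53 for mir-20a. On this scale mir-92a-1 stood 5.39 log2 units above mir-17, the next in the cluster, and 6.89 above mir-20a. Among all 10 members the next levels per mature base from the authors' deposited table were 7.72 for mir-25, 5.91 for mir-93, 5.83 for mir-92a-2 and 4.40 for mir-106b, ahead of mir-17. In each cluster, then, the hairpin with the miR-92 seed had the highest measured level. The length used is that of 1 arm, while a row covers the whole hairpin. Mean log2 expression without the length term puts the 10 members in the same order. No spread between libraries is given for these levels, so the order was not tested.

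The hairpin mir-92a-2 yields the same mature miR-92a-3p as mir-92a-1. Its log2 fold change in the authors' deposited table was 1.93 (unadjusted p = 0.0360, adjusted p = 0.240, limma), with an interval from 0.14 to 3.72, or from −0.20 when recentred on the 180 most abundant. The 2 hairpins are shown with miR-92a-3p in capitals, since the rest of the sequence is what can tell their reads apart (RefSeq, GRCm38.p6).
mir-92a-1: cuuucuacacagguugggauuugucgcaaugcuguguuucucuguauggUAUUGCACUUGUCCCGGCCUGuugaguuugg
mir-92a-2: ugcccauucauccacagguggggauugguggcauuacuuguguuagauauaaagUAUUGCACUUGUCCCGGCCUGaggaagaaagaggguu

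The longest run of bases these hairpins share is 22, barely longer than the 21 bases of the mature form, and 31 edits separate the whole hairpins. The authors' deposited table puts mean log2 expression at 13.81 for mir-92a-1 and at 10.23 for mir-92a-2, a difference of 3.58. By contrast, mir-19b-1 and mir-19b-2, which share a run of 25 bases with the whole of miR-19b-3p in it, had levels of 8.43 and 8.49 by the authors' deposited table. There were 34 pairs of hairpins in the table that share an identical mature sequence on either arm, the mir-92a pair included. Of these pairs, 31 differed less in mean expression than the mir-92a pair, and the median difference was 0.17. Some pairs, such as let-7c-2 and let-7a-1, carry different names, and some hairpins are in more than 1 pair. Reads of shared mature sequence cannot be told apart by copy, so mir-92a-1 and mir-92a-2 are uncertain as separate measurements. Their fold changes in the authors' deposited table differed by 0.59, with a 95% interval no wider than −2.87 to 4.05.

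Read by seed, the estimates of the miR-17 seed were higher for the hairpins of miR-106b-25, though the interval of mir-20a holds the values of both. In the authors' deposited table mir-106b and mir-93 had log2 fold changes of 1.81 and 1.62, while mir-17 and mir-20a, of the other cluster, had 0.05 and −0.32 (mir-17 turned negative on recentring). The 3 members of the miR-92 seed, mir-92a-1, mir-92a-2 and mir-25, were all positive in the authors' deposited table, with a median of 1.93. Of these, mir-92a-1 and mir-92a-2 yield the same miRNA and are uncertain as separate measurements. Over all 6 hairpins of that seed with a row, the median was 0.35. The other hairpins of that seed were negative in the authors' deposited table: mir-92b at −1.05 (adjusted p = 0.695), mir-32 at −0.74 (adjusted p = 0.855) and mir-363 at −0.41 (adjusted p = 0.912), none of which passed limma's test. These are less abundant, and the authors' deposited table puts mir-92b at 6.12, mir-32 at 3.13 and mir-363 at −0.53 in mean log2 expression. Among miR-19 hairpins, mir-19b-2 lay at 0.09 (adjusted p = 0.982, limma) in the authors' deposited table, beside its copy mir-19b-1, and turned negative under either recentring.

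**Figure D3:**
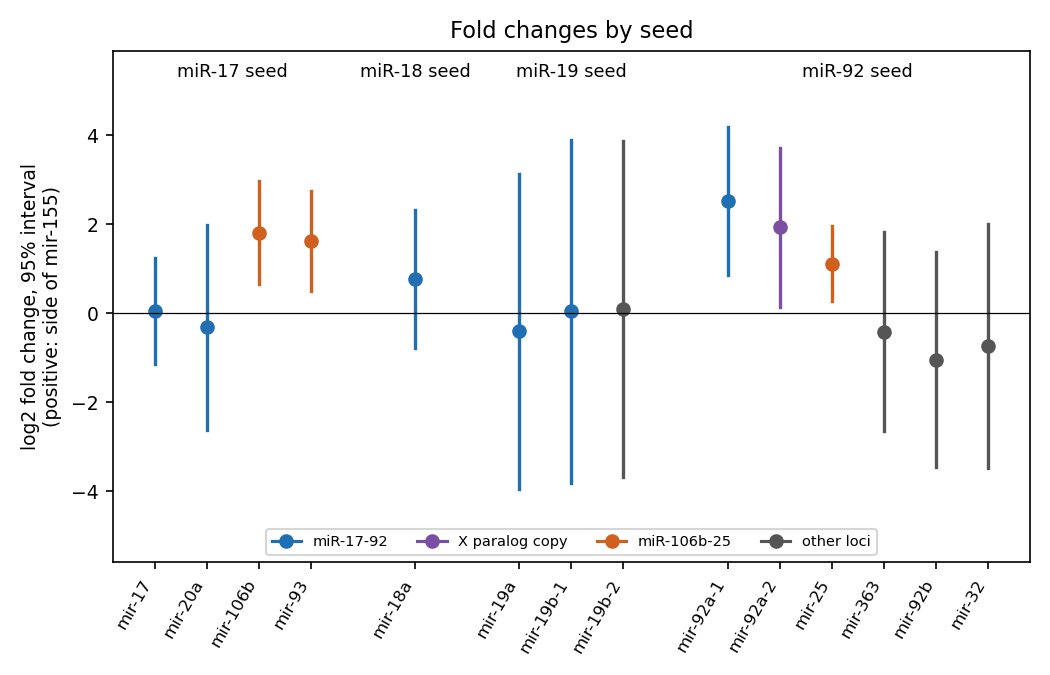
Log2 fold changes of the authors' deposited table, with 95% intervals from its t and p, for the 10 members and 4 other hairpins that share a seed, grouped by seed and coloured by locus. In the miR-17 seed the miR-106b-25 hairpins (1.81 and 1.62) stand above mir-17 and mir-20a (0.05 and −0.32), and in the miR-92 seed the 3 members are positive while mir-363, mir-92b and mir-32 are negative with intervals that cross 0.

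Whether 2 hairpins differ in fold change depends on how their values move together across libraries, which the deposited table does not give. For 13 pairs of members the interval of the difference was therefore computed with the largest standard error that any correlation allows, the sum of both. With that bound no pair left 0. The difference of mir-92a-1 minus mir-17, hairpins of 1 transcript, was 2.47, with a widest interval from −0.38 to 5.33. That interval leaves 0 if the estimates of these hairpins correlate above −0.49. For mir-106b minus mir-17, of the same seed, the difference was 1.76 (widest interval −0.57 to 4.10), which leaves 0 above a correlation of −0.14. The difference of mir-93 minus mir-17 was 1.57 (widest interval −0.74 to 3.89), which leaves 0 above a correlation of 0.08. Without correlation, 2 of the 13 pairs leave 0, mir-92a-1 minus mir-17 and mir-106b minus mir-17. These intervals are not adjusted for the number of pairs. Differences from mir-20a were larger in places but less certain: mir-92a-1 minus mir-20a was 2.84 (widest interval −1.14 to 6.81).

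Hairpins that lie close together on a chromosome gave a scale for these spreads. With 500 of 539 rows matched to RefSeq, there were 12 runs of at least 3 hairpins on 1 strand. In a run each hairpin starts no more than 10000 bases after the one before, so a whole run can be longer than that. From the authors' deposited table, the range of log2 fold changes was 0.70 in miR-106b-25, the smallest of the 12, and 2.92 in miR-17-92, exceeded by the 2.99 of the mir-379 to mir-410 run of 15 hairpins. The median of the 12 ranges was 1.63. Without mir-92a-1, the range of the other 5 miR-17-92 hairpins was 1.17. A range grows with the number of hairpins and with their errors, so this comparison is a description with no test.

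**Figure D4:**
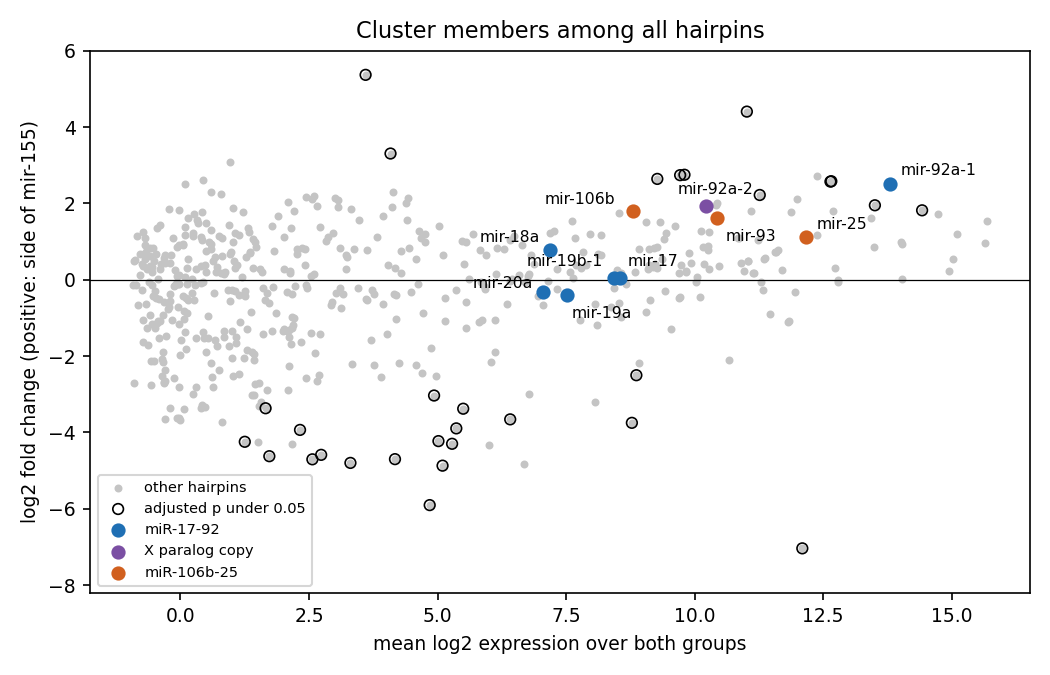
Log2 fold change against mean log2 expression for 539 hairpins of the authors' deposited table, with the 30 hairpins of adjusted p under 0.05 ringed and the members coloured by cluster. No member is ringed. The miR-17-92 hairpins other than mir-92a-1 lie within 0.77 of 0 at a mean expression of 7.05 to 8.54, and mir-92a-1, mir-92a-2 and the miR-106b-25 hairpins lie between 1.11 and 2.52 at 8.79 to 13.81.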

How the data were processed

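Small RNA was sequenced from exosomes of 7 obese and 7 lean ATM cultures. The authors' deposited table has 539 rows and 0 columns of per-library values, and the depth of each library is unknown. Per the file headers, it holds a log2 fold change and a log2 mean expression for each hairpin, a moderated t (a score), a raw p-value, an adjusted p-value, and B, a natural log of odds. Normalization and filters were not stated in any source used here. No model was fitted here: calls are an adjusted p under 0.05, over all rows, of limma as the authors ran it. From t and p, 17.9 degrees of freedom were recovered. Standard errors are fold change over t, and 95% intervals use those degrees of freedom. Recovery and adjustment were tested on simulated data (Python 3.11.15, scipy 1.17.1). Every member is named, and so are the 4 other hairpins with a row that were listed by a shared seed. The hairpins mir-20b, mir-106a and mir-18b also share a seed but have no row. Members and lists were chosen with earlier results of these data known. Alternatives changed the scaling, the expression minimum, the handling of copies and the threshold.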

Additional observations from a re-analysis of the deposited data

How the results depend on the processing

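The count of members past the threshold moved with the rows tested. With p adjusted again over the 231 hairpins that reach 3.32 in mean log2 expression, 32 hairpins passed (13.9%, 16 of each sign) and 2 members were among them, 1 per cluster: mir-106b at 1.81 (adjusted p = 0.0348) and mir-92a-1 at 2.52 (adjusted p = 0.0396). The median log2 fold change of the 231 was 0.30, and this set was not recentred. The p-values of both members are the same as before, so the passes come from which rows were left out of the adjustment. An adjusted p under 0.1 gave 3 members, 1 of miR-17-92 and 2 of miR-106b-25, beside 8.35% of all hairpins and 25 of the 180 most abundant. An unadjusted p under 0.05 gave 5, of which 1 is of miR-17-92 and 3 of miR-106b-25. That was beside 17.6% of all hairpins and 44 of the 180 most abundant. Recentring on all hairpins put the adjusted p of mir-106b at 0.0811, of mir-92a-1 at 0.0889 and of mir-93 at 0.118. Recentring on the 180 most abundant put it at 0.140, 0.130 and 0.218. Reading these values against 0.1 was chosen after seeing the data, and the share of all hairpins under 0.1 was not computed there. Recentring by 0.09 (all hairpins) or 0.34 (the 180 most abundant), 1 hairpin per stem, and a 2-fold minimum each left 0 members at an adjusted p under 0.05. Recentring turned mir-17 to −0.045 and −0.29 and mir-19b-1 to −0.051 and −0.30, so 6 members were positive instead of 8. As deposited, 284 of 539 hairpins (52.7%) and 122 of the 180 most abundant (67.8%) were positive. With 1 hairpin per stem mir-92a-2 and mir-19b-1 gave way to their copies and have no value. No paired analysis was possible because replicate numbers cannot be tied to a table of group summaries, and for the same reason libraries were not left out in turn.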
